A study of Mus musculus with 9 samples.

Results

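The 10 genes described here, Spp1, Thbs1, Thbs2, Sparc, Tnc, Postn, Fn1, Vcan, Fap and Pdpn, encode matricellular proteins, proteins of the provisional matrix and surface proteins of activated stromal cells. They were chosen by name, for these roles and with earlier results of these data known, from the 21498 gene symbols measured. The samples were colorectal tissue of male ICR mice, an outbred stock, that were 5 weeks old at the start and were killed at the end of week 18, with 3 labelled biological replicates in each of 3 groups. The Control group received no AOM, DSS or antibody and is labelled normal colorectal mucosa. The AOM/DSS + IgG Ab group received a single injection of 10 mg/kg azoxymethane (AOM), a colonic carcinogen, and then 3 cycles of dextran sulfate sodium (DSS), which injures the colonic epithelium, with the water they drank (2% over 7 days in the opening cycle, and 1.5% over 5 days in both later ones). These mice were given 1.5 mg/kg of a negative control IgG antibody intravenously every other day during the DSS cycles. The AOM/DSS + anti-S100a9 Ab group had the same AOM and DSS with 1.5 mg/kg of a rabbit polyclonal neutralizing antibody against S100a9, a calcium-binding protein released by neutrophils and other myeloid cells. Both AOM/DSS groups are labelled colorectal adenocarcinoma, and they are called the IgG Ab and the anti-S100a9 Ab group from here on. The text of the study calls the anti-S100a9 Ab tissue colon mucosa, so that tumor and mucosa as the tissue taken cannot be told apart from the antibody in a comparison of both groups. The comparison of AOM/DSS + IgG Ab with Control asks what the tumor-bearing tissue expressed beyond normal mucosa, and the comparison of both antibodies asks what blocking S100a9 changed.

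Matricellular proteins are secreted into the extracellular matrix but build little of its structure. They bind integrins, syndecans, CD44 or CD36 and set how cells attach, migrate and respond to growth factors, and many of them are scarce in resting tissue and abundant in wounds, inflammation and tumor stroma. In the colon, fibroblasts make most of them, smooth muscle, endothelium and macrophages also contribute, and osteopontin, the product of Spp1, is made by macrophages, activated T cells and epithelial tumor cells as well.

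Values are FPKM, fragments per kilobase of transcript scaled to the mapped fragments of each sample, so levels can be compared between genes. Fold changes are on the log2(FPKM + 0.1) scale, which makes the changes of barely expressed genes look smaller, and each is given with the standard error of a limma fit to all 9 samples and a Benjamini-Hochberg adjusted p-value over the 15278 genes tested. A gene was called at an adjusted p under 0.05. All 10 genes passed the filter on low values. Among all genes tested, 8.18% were called higher and 3.01% lower in IgG Ab than in Control, and 14.4% were called lower and 6.72% higher in anti-S100a9 Ab than in IgG Ab. Between anti-S100a9 Ab and Control, 0.00655% were called higher. These counts also moved with single samples. With a sample left out, 591 to 2167 of all genes were called against Control in place of 1710. Between the antibodies, 516 to 4114 were called in place of 3219. The split of the calls moved with the scaling. Before scaling, 1250 genes were higher and 460 lower in IgG Ab than in Control, and after quantile normalization 947 and 631. With anti-S100a9 Ab against IgG Ab, 1026 were higher and 2193 lower as deposited, and 1389 and 1706 after quantile normalization. The median change of all genes was 0.09, -0.06 and 0.04 on the log2 scale in the 3 comparisons.

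S100a9 itself, the target of the antibody, was listed at 0.370, 0.859 and 0.575 FPKM in Control, at 63.1, 173 and 267 in IgG Ab and at 10.3, 11.6 and 5.54 in anti-S100a9 Ab. The antibody acts on the protein, and these are levels of the mRNA.

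RefSeq start sites on GRCm38.p6 were matched for 7 of the 10 genes, with none matched for Fn1, Thbs1 and Fap. Spp1, Postn and Tnc have 2 start sites each, which gives 10 windows. The 250 bases before the start are shown for Spp1 and Sparc, which were called in both comparisons below, and for Postn, which was called in neither, so that their upstream sequences can be set side by side. For Spp1 and Postn the window nearest the annotated gene start given below is shown, and the other window of each, at chr5:104435942-104436191 and chr3:54359017-54359266, holds no match to the 4 motifs searched. The Spp1 sequence lies at chr5:104434861-104435110 on the plus strand, the Sparc sequence at chr11:55420081-55420330 on the minus strand and the Postn sequence at chr3:54360857-54361106 on the plus strand. The Sparc window precedes its RefSeq start but lies inside the annotated gene span given below, which starts at 55423183 on that strand. Sparc has no other window. Capitals mark matches, on either strand, to TATAAA, the core of a TATA box, and to CAGACA, a sequence bound by SMAD proteins.
Spp1: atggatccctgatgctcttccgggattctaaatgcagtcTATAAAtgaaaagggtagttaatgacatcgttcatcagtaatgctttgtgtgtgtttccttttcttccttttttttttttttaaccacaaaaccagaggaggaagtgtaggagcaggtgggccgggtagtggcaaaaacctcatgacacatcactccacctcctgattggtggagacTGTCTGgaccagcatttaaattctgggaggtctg
Sparc: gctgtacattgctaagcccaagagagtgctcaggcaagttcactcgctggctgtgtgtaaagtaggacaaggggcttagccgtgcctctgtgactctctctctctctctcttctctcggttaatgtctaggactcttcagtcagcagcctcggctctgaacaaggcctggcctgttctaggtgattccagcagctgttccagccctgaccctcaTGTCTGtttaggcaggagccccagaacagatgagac
Postn: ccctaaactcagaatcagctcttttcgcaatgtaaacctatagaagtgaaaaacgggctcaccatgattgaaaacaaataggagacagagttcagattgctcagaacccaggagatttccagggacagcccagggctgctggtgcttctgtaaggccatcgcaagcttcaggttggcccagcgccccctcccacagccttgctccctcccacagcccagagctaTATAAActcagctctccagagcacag
TATAAA began 26 bases before this Postn start and 211 bases before this Spp1 start, and was absent from this Sparc window. CAGACA, on the reverse strand, began 34 bases before the same Spp1 start and 36 bases before the Sparc start. TATAAA was in 5 of the 10 windows (of Spp1, Postn, Thbs2 and both of Tnc, which overlap and share the match) and CAGACA in 4 (of Spp1, Tnc, Thbs2 and Sparc), while 12.4% and 17.1% of the 32841 windows of this length in the RefSeq table held them on either strand. The AP-1 sequence TGANTCA, whose reverse complement is the same motif, and the TEAD sequence GGAATG were found in no window of the 7 genes. They were in 6.8% and 12.6% of all windows. No motif match overlapped another in the sequences shown.

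In IgG Ab, 4 of the 10 genes rose against Control (Spp1, Thbs1, Sparc and Fn1) and none fell, where 8.18% of all genes were called higher. With the thresholds of the study (unadjusted p under 0.05, over 2-fold), Thbs2 and Vcan were added and the count was 6, against 8.43% of all genes. In 7 of the 10 genes, all 3 IgG Ab samples lay above all 3 Control samples, as did 20.7% of all genes. The 10 genes had a median log2 fold change of 1.34, and all genes tested of 0.09. The count was 5 without IgG Ab replicate 1, with Vcan added, and 2 (Spp1 and Thbs1) without Control replicate 1 or 3, IgG Ab replicate 3 or anti-S100a9 Ab replicate 1 or 2. Of all genes, 1170 were called without IgG Ab replicate 1 and 725 to 1681 in the latter fits, in place of 1710. In bulk tissue, more cells of a type and more RNA per cell cannot be told apart.

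**Figure D1:**
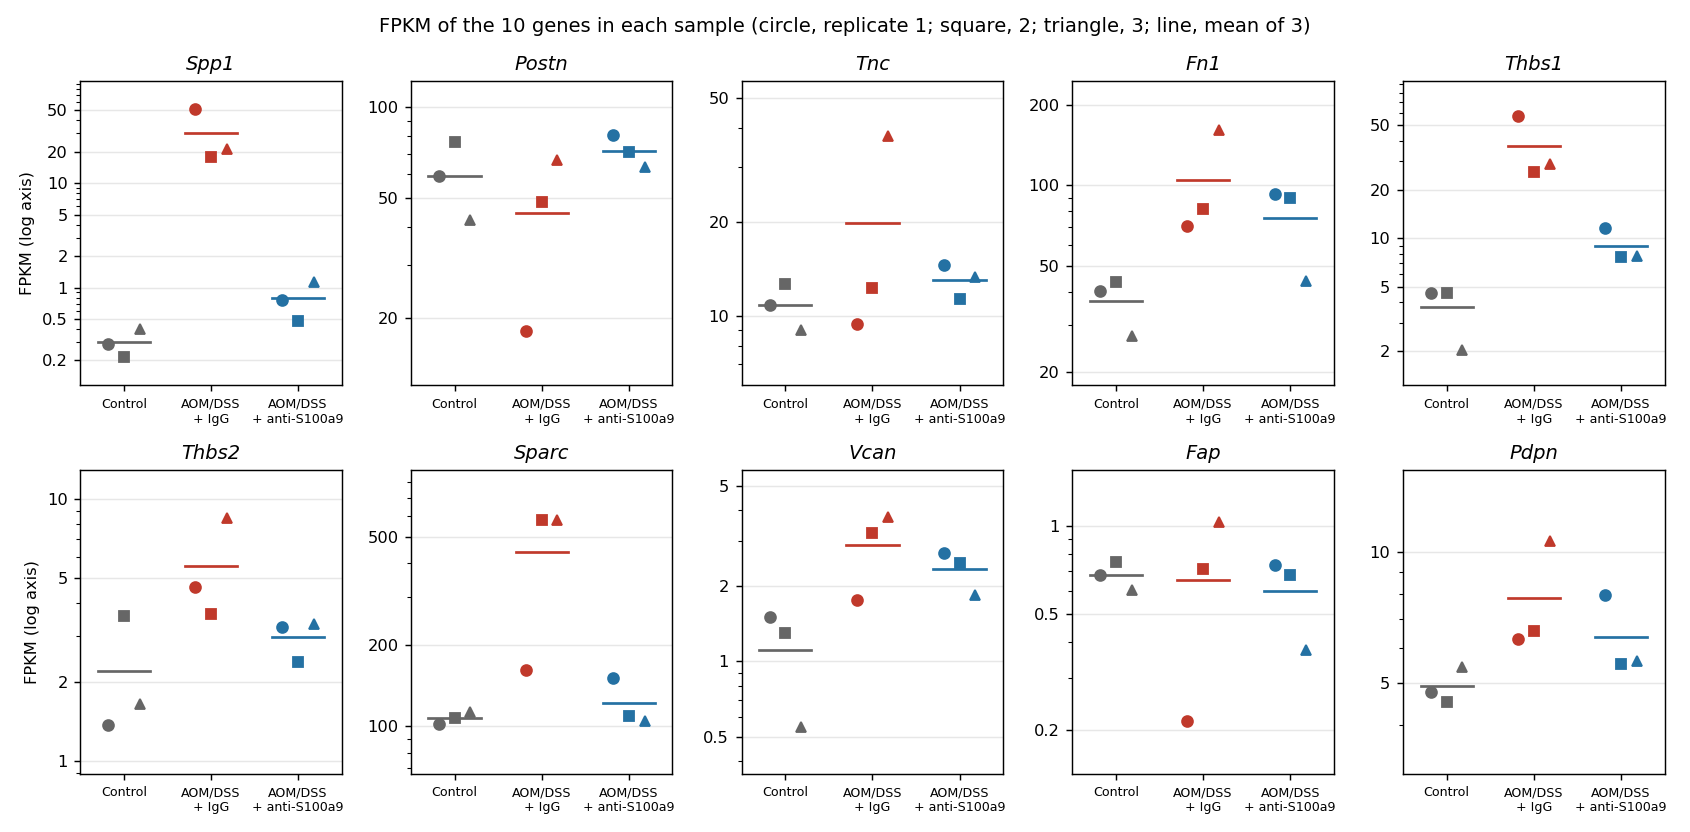
FPKM (log axis) of the 10 genes in each of the 9 samples, by group, with 1 point per sample and a line at the mean of the 3. Spp1 and Thbs1 show 3 separate groups, with all IgG Ab samples on top, while the Postn, Tnc and Fap samples of the 3 groups overlap.

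Spp1 (osteopontin, chr5:104435118-104441050), a secreted phosphoprotein that binds CD44 and integrins and attracts macrophages, changed most. It was listed at 0.285, 0.214 and 0.397 FPKM in Control, at 51.8, 17.9 and 21.4 in IgG Ab, and at 0.760, 0.477 and 1.12 in anti-S100a9 Ab. It had the lowest mean of the 10 genes in normal mucosa, 0.299 FPKM, and a mean of 30.4 in IgG Ab, near that of Thbs1. The 3 groups did not overlap, and the smallest IgG Ab value was far above the largest of any other group. Spp1 rose by 6.12 ± 0.44 (SE) on the log2 scale against Control (adjusted p = 0.000306) and was lower by 5.01 ± 0.44 with anti-S100a9 Ab than with IgG Ab (log2 fold change -5.01, adjusted p = 0.0012). By p-value it ranked 12 and 16 among the 15278 genes in these comparisons. Between anti-S100a9 Ab and Control the log2 fold change was 1.11 (95% confidence interval 0.12 to 2.10), with an unadjusted p of 0.032 and an adjusted p of 0.301. Because the Control values are near the pseudocount, the size of the change depends on it. A pseudocount of 1 in place of 0.1 gave 4.44, -4.00 and 0.45.

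Thbs1 (thrombospondin 1, chr2:118111876-118127133) binds CD36 and CD47, inhibits angiogenesis and activates latent TGF-β. Its values were 4.56, 4.58 and 2.03 FPKM in Control, 57.0, 25.9 and 28.8 in IgG Ab and 11.6, 7.67 and 7.76 in anti-S100a9 Ab. Here too the 3 groups were separate, with the anti-S100a9 Ab samples between the others. Thbs1 rose by 3.28 ± 0.39 on the log2 scale against Control (adjusted p = 0.00202), and its level with anti-S100a9 Ab was lower than with IgG Ab (log2 fold change -1.97 ± 0.39, adjusted p = 0.0146). Without anti-S100a9 Ab replicate 2 the latter was -1.87 with an adjusted p of 0.059. The remaining log2 difference between anti-S100a9 Ab and Control was 1.31 (95% confidence interval 0.43 to 2.19, unadjusted p = 0.00819, adjusted p = 0.301).

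Thbs2 (thrombospondin 2, chr17:14665500-14694235), a related inhibitor of angiogenesis that also affects collagen fibril assembly, was listed at 1.37, 3.58 and 1.65 FPKM in Control, 4.62, 3.65 and 8.42 in IgG Ab and 3.24, 2.38 and 3.33 in anti-S100a9 Ab. The IgG Ab samples lay above both other groups, but their lowest value, 3.65, barely exceeded the highest Control value, 3.58. The log2 fold change was 1.33 ± 0.41 against Control (adjusted p = 0.0673) and -0.80 ± 0.41 between the antibodies (adjusted p = 0.173), so neither passed. It passed against Control without Control replicate 2 (log2 fold change 1.73, adjusted p = 0.0429) or without IgG Ab replicate 2 (1.58, adjusted p = 0.0475). Its mean in IgG Ab was 5.57 FPKM, against 37.2 for Thbs1.

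Sparc (osteonectin, chr11:55394500-55423183), a collagen-binding protein needed for the assembly of fibrillar collagen, had the highest mean of the 10 genes in every group. Its values were 102, 107 and 113 FPKM in Control, 162, 581 and 580 in IgG Ab and 151, 109 and 105 in anti-S100a9 Ab. All IgG Ab samples exceeded all others, and 2 of them were far above the remaining one, which lay near the highest anti-S100a9 Ab sample. Sparc rose by 1.82 ± 0.44 on the log2 scale against Control (adjusted p = 0.0339) and was lower with anti-S100a9 Ab than with IgG Ab (-1.66 ± 0.44, adjusted p = 0.0326). Between anti-S100a9 Ab and Control the difference was 0.16 (95% confidence interval -0.85 to 1.16, adjusted p = 0.877). Without IgG Ab replicate 1 the 2 called changes were 2.43 (adjusted p = 0.000805) and -2.27 (adjusted p = 0.00184). The rise lost its call without each of the other 8 samples (adjusted p of 0.0522 to 0.0995), and the fall between antibodies lost it without any of 6, namely Control replicate 2, IgG Ab replicates 2 and 3 and the 3 anti-S100a9 Ab samples (adjusted p of 0.0503 to 0.101).

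Tnc (tenascin C, chr4:63959785-64047015), which loosens cell attachment to fibronectin and appears at wound edges and in tumor stroma, had values of 10.9, 12.6 and 9.03 FPKM in Control, 9.44, 12.3 and 37.7 in IgG Ab and 14.5, 11.3 and 13.4 in anti-S100a9 Ab. A single sample, IgG Ab replicate 3, stood above all others, and the remaining 8 lay between 9.03 and 14.5. The log2 fold change was 0.60 ± 0.44 against Control (adjusted p = 0.389) and -0.33 ± 0.44 between the antibodies (adjusted p = 0.601). Without that sample the latter was 0.27 (adjusted p = 0.38) and the former 0.00.

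Postn (periostin, chr3:54361109-54391037), which binds integrins and aids collagen cross-linking, was abundant in normal mucosa, with 59.0, 76.4 and 42.2 FPKM. It was listed at 18.0, 48.4 and 66.7 in IgG Ab and at 81.0, 70.8 and 63.3 in anti-S100a9 Ab. The groups overlapped in every comparison, and the lowest value of all was that of IgG Ab replicate 1. The log2 fold change was -0.57 ± 0.43 against Control (adjusted p = 0.41) and 0.88 ± 0.43 between the antibodies (95% confidence interval -0.10 to 1.86, adjusted p = 0.163).

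Among the proteins of the provisional matrix, Fn1 (fibronectin, chr1:71585520-71653200), the scaffold on which cells attach through integrins, was listed at 40.2, 43.3 and 27.4 FPKM in Control, at 70.5, 81.8 and 160 in IgG Ab and at 93.1, 89.3 and 43.8 in anti-S100a9 Ab. Both AOM/DSS groups lay above Control without overlap, the lowest anti-S100a9 Ab sample only narrowly, and overlapped each other. Fn1 rose by 1.42 ± 0.38 on the log2 scale against Control (adjusted p = 0.0455), and differed by -0.45 ± 0.38 between the antibodies (95% confidence interval -1.31 to 0.41, adjusted p = 0.402). The difference between anti-S100a9 Ab and Control was 0.98 ± 0.38 (unadjusted p = 0.0306, adjusted p = 0.301). The call against Control lay close to the threshold. It held without IgG Ab replicate 1 (adjusted p = 0.0498) or anti-S100a9 Ab replicate 3 (adjusted p = 0.0377) and was lost without each of the other 7 samples (adjusted p of 0.051 to 0.0995), and with the replicate number as a block (adjusted p = 0.0739). It was also lost with no filter, no intensity trend, either other scaling or the 2 groups alone (adjusted p of 0.0561 to 0.075).

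Vcan (versican, chr13:89655312-89742509), a large proteoglycan that binds hyaluronan and swells the matrix, was low in all samples. It was listed at 1.50, 1.29 and 0.550 FPKM in Control, 1.75, 3.23 and 3.75 in IgG Ab and 2.69, 2.47 and 1.84 in anti-S100a9 Ab. As with Fn1, both AOM/DSS groups lay above Control and overlapped each other. The log2 fold change was 1.34 ± 0.40 against Control (adjusted p = 0.0645), -0.26 ± 0.40 between the antibodies (adjusted p = 0.662) and 1.09 ± 0.40 for anti-S100a9 Ab against Control (unadjusted p = 0.0249, adjusted p = 0.301). Without IgG Ab replicate 1 the change against Control was 1.66 and passed (adjusted p = 0.043).

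Fap and Pdpn mark activated fibroblasts at the cell surface. Fap (fibroblast activation protein, chr2:62500943-62574075), a serine protease, was listed at 0.677, 0.753 and 0.602 FPKM in Control, 0.214, 0.709 and 1.03 in IgG Ab and 0.733, 0.678 and 0.375 in anti-S100a9 Ab. The 3 groups overlapped, with the highest and the lowest value of all both in IgG Ab. The log2 fold change was -0.23 ± 0.46 against Control (95% confidence interval -1.28 to 0.81, adjusted p = 0.77) and 0.04 ± 0.46 between the antibodies (adjusted p = 0.964). The sign changed in both without IgG Ab replicate 1, to 0.30 and -0.50.

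Pdpn (podoplanin, chr4:143267431-143299564), a mucin-like glycoprotein of fibroblasts and lymphatic endothelium that binds the platelet receptor CLEC-2, was listed at 4.77, 4.51 and 5.44 FPKM in Control, 6.31, 6.57 and 10.6 in IgG Ab and 7.97, 5.51 and 5.62 in anti-S100a9 Ab. Each AOM/DSS sample exceeded each Control sample. The log2 fold change was 0.63 ± 0.24 against Control (unadjusted p = 0.0284, adjusted p = 0.123), -0.27 ± 0.24 between the antibodies (adjusted p = 0.417) and 0.35 ± 0.24 for anti-S100a9 Ab against Control (adjusted p = 0.465).

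Between the antibodies, 3 of the 10 genes fell with anti-S100a9 Ab (Spp1, Thbs1 and Sparc) and none rose, where 14.4% of all genes were called lower. In 4 of the 10, with Thbs2 added, all 3 anti-S100a9 Ab samples lay below all 3 IgG Ab samples, as did 28.5% of all genes. The 10 genes had a median log2 fold change of -0.39, and all genes of -0.06. The 3 genes that fell are among the 4 that rose against Control, but both comparisons share the IgG Ab samples. Without anti-S100a9 Ab replicate 2, only Spp1 was called, and 516 of all genes in place of 3219. Without IgG Ab replicate 1, the 3 calls remained, with 1576 of all genes called.

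**Figure D2:**
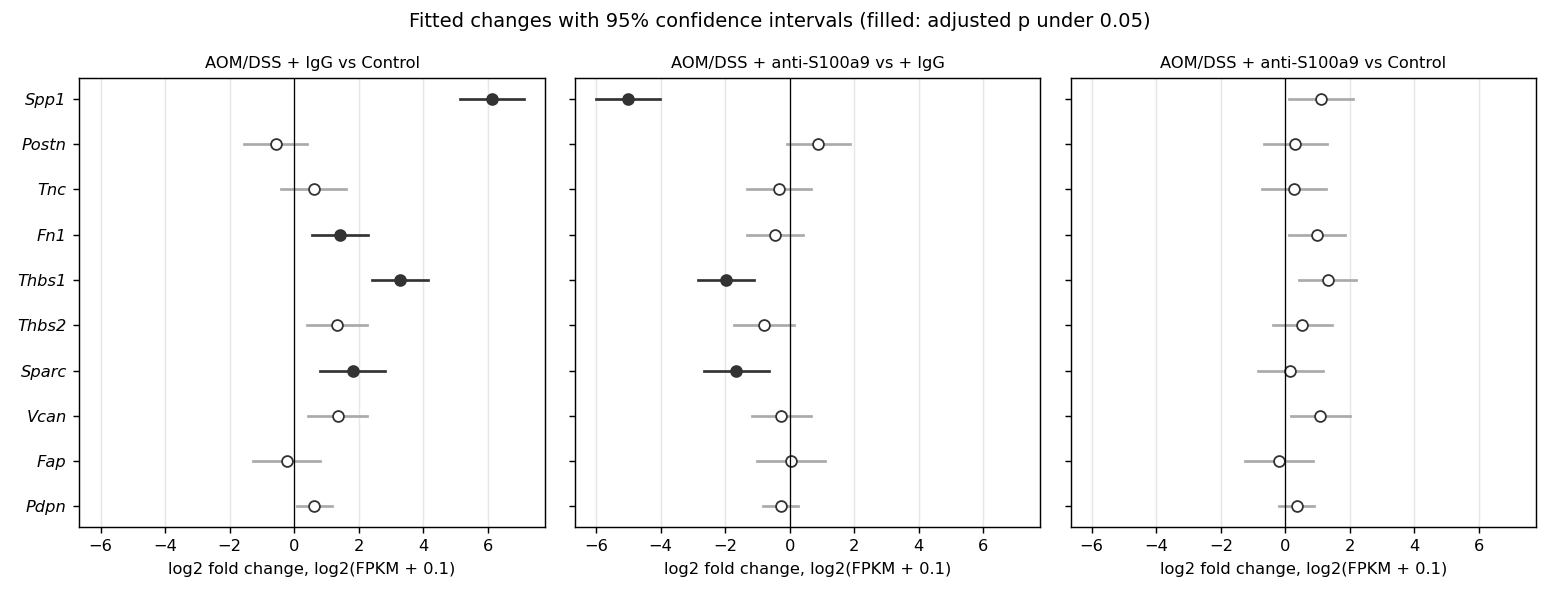
Log2 fold change of the 10 genes in the 3 comparisons, with bars for the 95% confidence interval of the limma fit and filled points for an adjusted p under 0.05. Spp1 and Thbs1 lie farthest from 0 in the panels with IgG Ab, and in the panel of anti-S100a9 Ab against Control no gene is filled.

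Against Control, none of the 10 genes was called in anti-S100a9 Ab by limma, where 0.00655% of all genes were called higher. The unadjusted p was under 0.05 for 4 (Spp1, Fn1, Thbs1 and Vcan), as it was in either direction for 2439 of the 15278 genes tested. The change was also over 2-fold for 3 of these 4, without Fn1, against 2.28% of all genes that were higher by both thresholds. In 5 of the 10 genes (those 4 and Pdpn) all anti-S100a9 Ab samples lay above all Control samples, as did 17.3% of all genes. Their median log2 fold change was 0.44, and that of all genes 0.04. Set side by side, the levels had 3 forms. Spp1, Thbs1, Thbs2 and Sparc were higher in all IgG Ab samples than in any other sample, with neither difference of Thbs2 called by limma. Fn1, Vcan and Pdpn lay above Control in both AOM/DSS groups, whose values overlapped. Postn, Tnc and Fap overlapped between all groups. Whether the response to the antibody differs between these sets was not tested.

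The order of the 10 genes by level also shifted between groups. In Control the mean FPKM was 108 ± 5.57 (SD, n = 3) for Sparc, 59.2 ± 17.1 for Postn, 37.0 ± 8.44 for Fn1, 10.8 ± 1.80 for Tnc, 4.91 ± 0.483 for Pdpn and 3.72 ± 1.46 for Thbs1, with Thbs2, Vcan, Fap and Spp1 below these. Sparc differed from Postn, Fn1 from Tnc and Tnc from Pdpn by more than the sum of their SDs, while Postn and Fn1, and Pdpn and Thbs1, did not. In IgG Ab, Sparc (441 ± 242) was followed by Fn1 (104 ± 49.0), Postn (44.4 ± 24.6), Thbs1 (37.2 ± 17.2), Spp1 (30.4 ± 18.7) and Tnc (19.8 ± 15.6), and neighbours in this order from Fn1 to Tnc differed by less than the sum of their SDs. In anti-S100a9 Ab the means were 122 ± 25.4 for Sparc, 75.4 ± 27.4 for Fn1, 71.7 ± 8.86 for Postn and 13.1 ± 1.64 for Tnc, with less than the sum of the SDs between Sparc and Fn1 and between Fn1 and Postn. Spp1 was again low there, at 0.786 ± 0.324.

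For 7 of the 10 genes, all but Thbs1, Thbs2 and Vcan, the ratio of the highest to the lowest sample was larger in IgG Ab than in either other group. Replicate 1 was the highest of the 3 for Spp1 and Thbs1 and the lowest for 7 of the other genes, all but Thbs2. Replicate 3 was the highest for 7 genes (Postn, Tnc, Fn1, Thbs2, Vcan, Fap and Pdpn). The highest IgG Ab value was 4.81 times the lowest for Fap, 4 times for Tnc, 3.7 times for Postn and 3.59 times for Sparc, while the corresponding ratios in Control were 1.25, 1.4, 1.81 and 1.11. Replicates have no order, and the differences between mice of a group are given here as values.

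**Figure D3:**
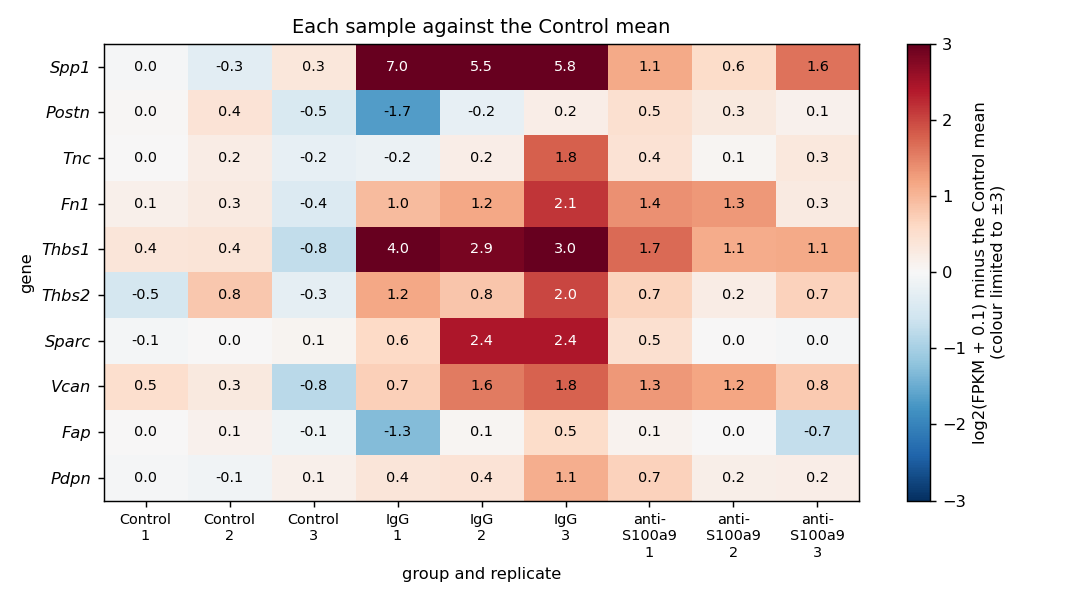
Log2(FPKM + 0.1) of each gene (rows) in each sample (columns) minus the mean of the Control samples, with the value written in each cell and the colour limited to 3 either way. In IgG Ab replicate 1, Spp1 and Thbs1 are at their highest while Postn and Fap are below the Control mean.

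Marker genes of the cell types the tissue could hold varied between the same samples. The summed FPKM of 14 fibroblast genes was 836 to 865 in Control, 1095 in IgG Ab replicate 1 and 2277 and 2585 in the other 2, and 942 to 1143 in anti-S100a9 Ab. Much of the sum in IgG Ab replicates 2 and 3 was Col1a1 (489 and 358 FPKM), Col1a2 (458 and 280) and Col3a1 (777 and 533). Against Control, 12 of the 14 estimates were higher and 2 lower. Of these 14 genes, 5 rose against Control (Pdgfra, Pdgfrb, Col1a1, Col1a2 and Col3a1) and 4 fell with anti-S100a9 Ab (Col1a1, Col1a2, Col3a1 and Vim). Col1a1, a chain of type I collagen, was listed at 43.4, 38.7 and 44.6 FPKM in Control, at 68.6, 489 and 358 in IgG Ab and at 48.6, 38.2 and 33.0 in anti-S100a9 Ab, so that its lowest IgG Ab sample was that of Sparc. It changed by 2.44 ± 0.61 against Control (adjusted p = 0.0365) and by -2.54 ± 0.61 between the antibodies (adjusted p = 0.024). Col3a1 did likewise, with 2.21 ± 0.46 (adjusted p = 0.0203) and -1.86 ± 0.46 (adjusted p = 0.0267). Against Control, Col1a1 kept its call only without IgG Ab replicate 1 (adjusted p = 0.000663, and otherwise 0.0584 to 0.11) and Col3a1 lost it without any single Control sample or IgG Ab replicate 3 (up to 0.0652). Between the antibodies both lost it without IgG Ab replicate 3 or any single anti-S100a9 Ab sample (up to 0.0811). The count of the 14 against Control was 0 without Control replicate 1 or 2 or IgG Ab replicate 3, 1 without Control replicate 3 and 2 without any single anti-S100a9 Ab sample, and that between the antibodies was 2 without Control replicate 2 and 0 without IgG Ab replicate 3 or any single anti-S100a9 Ab sample. Dcn (decorin), the other of the 2 most abundant genes of the list, had 0.31 ± 0.17 (adjusted p = 0.261) and 0.32 ± 0.17 (adjusted p = 0.194).

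Of the 8 smooth muscle genes none was called against Control, though all 8 estimates were lower, and 2 (Myh11 and Synm) rose with anti-S100a9 Ab against IgG Ab. Without IgG Ab replicate 3 the counts were 4 and 8, and between the antibodies they were 0 or 1 without any other IgG Ab or any single anti-S100a9 Ab sample. Their sum was 1406 to 2238 FPKM in Control, 391 in IgG Ab replicate 1, 847 in replicate 2 and 2550 in replicate 3, and 1738 to 3322 in anti-S100a9 Ab, and no gene of the list was at 0. The sample lowest in smooth muscle genes was thus also lowest in Postn and Fap. The 8 endothelial genes, with no call in either comparison, summed to 70.1 to 83.2 FPKM in Control, 54.5, 87.7 and 161 in IgG Ab and 66.4 to 91.9 in anti-S100a9 Ab, and were highest in the sample with the highest Tnc. The part of these differences in the results for the 10 genes was not tested.

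Myeloid cells, another source of Spp1, Thbs1 and Fn1, were read from 2 lists. The 11 macrophage genes summed to 751 to 1652 FPKM in Control, 734 to 1299 in IgG Ab and 1152 to 1447 in anti-S100a9 Ab. None was called against Control, and Ms4a7 alone rose with anti-S100a9 Ab against IgG Ab. Of the 7 neutrophil genes tested, 6 rose against Control and 5 fell with anti-S100a9 Ab. The 8 listed summed to 90.8 to 121 FPKM in Control, 134, 450 and 690 in IgG Ab and 102 to 180 in anti-S100a9 Ab, with Ly6g the largest term outside IgG Ab and Elane at 0 in 7 of the 9 samples. The list holds S100a9, the target of the antibody, and S100a8, which together made up most of each IgG Ab sum. They were at 63.1, 173 and 267 FPKM (S100a9) and 35.7, 141 and 242 FPKM (S100a8) there. Ly6g went the other way, with means of 104 FPKM in Control, 72.4 in IgG Ab and 124 in anti-S100a9 Ab. The lowest of the IgG Ab sums was that of replicate 1, the sample highest in Spp1 and Thbs1.

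The genes of colonic epithelium were high in every sample, with sums of 5865 to 7861 FPKM in Control, 4418 to 7205 in IgG Ab and 5003 to 6572 in anti-S100a9 Ab. Of its 9 genes, Krt18 alone rose against Control and fell with anti-S100a9 Ab. Smooth muscle genes at the levels above were present in tissue labelled mucosa. Of the 6 squamous epithelial genes tested, 4 rose in IgG Ab and fell with anti-S100a9 Ab, with sums of 0.899 to 2.06 FPKM in Control, 7.63 to 45.8 in IgG Ab and 1.64 to 4.01 in anti-S100a9 Ab. Of the 6, Dsg3 passed the filter only through the IgG Ab samples (1.87, 0.723 and 0.384 FPKM), with 0 in Control and at most 0.0828 in anti-S100a9 Ab. Krt6a passed through IgG Ab (0.250 to 0.776) and an anti-S100a9 Ab sample (0.142), with 0 in Control. The filter itself thus favoured a rise of both. Trp63, the defining transcription factor of that list, was at 0 in 5 of the 9 samples. Of the 4 mesothelial genes tested, Msln and Krt7 also rose in IgG Ab and fell with anti-S100a9 Ab, with sums of 23.6 to 28.1, 54.4 to 138 and 18.7 to 21.6 FPKM. Most of each sum was Krt7, with means of 23.7, 91.1 and 18.4 FPKM. The other 2 tested, Wt1 and Upk3b, were not called, with means of at most 0.960 FPKM in any group. Of the 5 adipocyte genes tested 4 were lower in IgG Ab than in Control, with sums of 77.8 to 278 in Control, 9.92 to 46.3 in IgG Ab and 19.5 to 36.8 in anti-S100a9 Ab. Between anti-S100a9 Ab and Control their median log2 fold change was -3.83 and none was called. By the thresholds of the study 4 of them were lower there, as were 132 of the 15278 genes tested. The count of 4 in IgG Ab was 0 to 4 with a sample left out, and 4 only without IgG Ab replicate 2. Adipoq and Plin1 passed the filter through Control (2.99 to 16.9 and 0.303 to 2.48 FPKM) and IgG Ab replicate 2 (1.23 and 0.148). The filter itself thus favoured lower levels of both than in Control. None of the 5 glial genes was called against Control, and 3 were lower by the thresholds of the study, as were 793 of the 15278 genes tested. Between the antibodies all 5 estimates were higher with anti-S100a9 Ab, 2 were called (0 without any single anti-S100a9 Ab sample, 3 without IgG Ab replicate 2 and otherwise 1), and the median log2 fold change was 1.27. Of the 6 lymphatic genes, Prox1 alone rose against Control, and it fell with anti-S100a9 Ab while Reln and Mmrn1 rose. With a sample left out, the calls against Control and between the antibodies were 0 to 2 and 0 to 2 for epithelium, 2 to 4 and 1 to 4 for squamous, 1 to 2 and 1 to 2 for mesothelial, 1 and 0 to 5 for lymphatic and 4 to 6 and 2 to 5 for neutrophil genes. The part of these cell types in the results for the 10 genes was not tested.

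**Figure D4:**
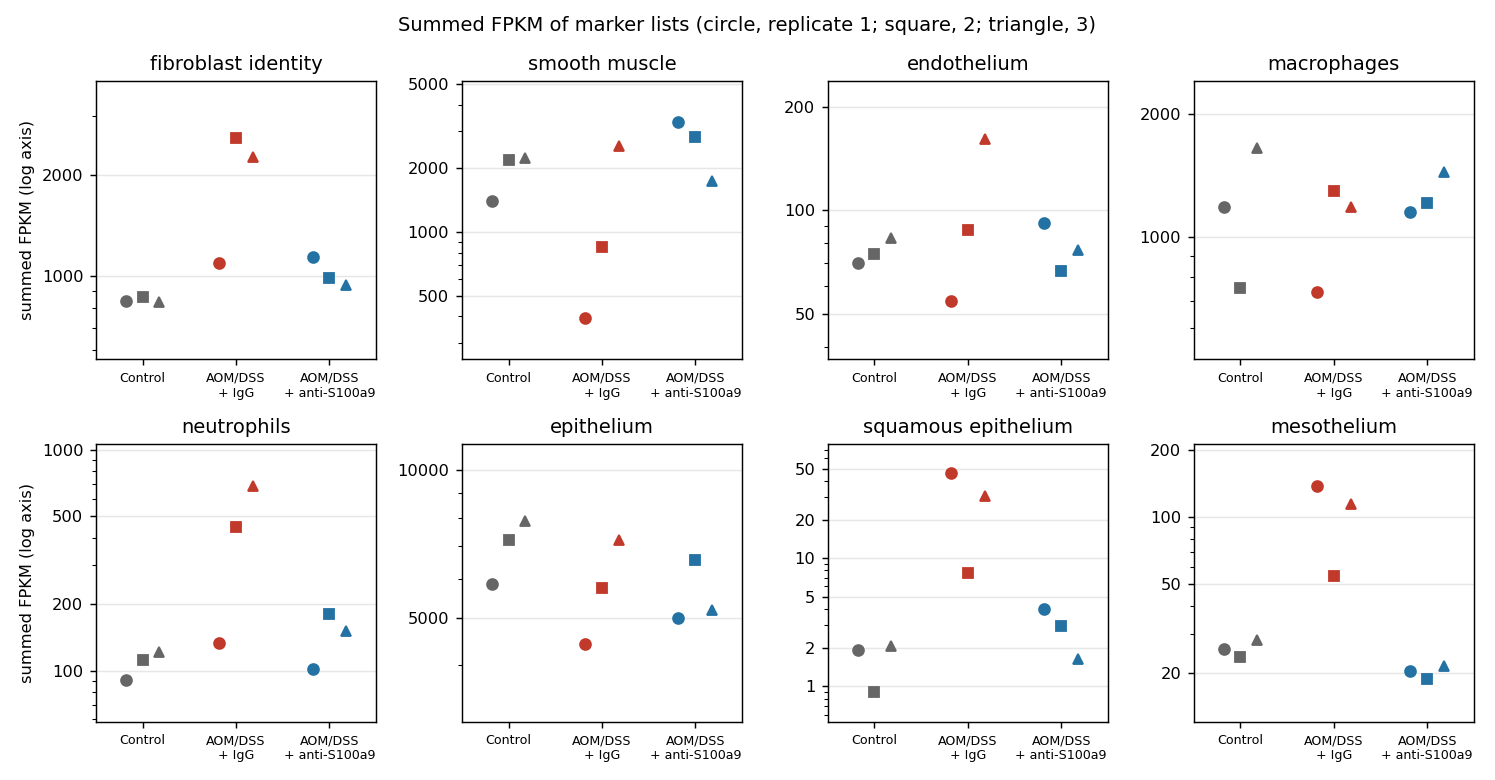
Summed FPKM (log axis) of 8 lists of marker genes in each sample, by group. IgG Ab replicate 1 (circle) has the lowest sum of its group for fibroblast, smooth muscle, endothelial, macrophage, neutrophil and epithelial genes and the highest for squamous and mesothelial genes. The mesothelial sum is mostly Krt7, and the neutrophil sum in IgG Ab mostly S100a8 and S100a9. Much of the fibroblast sum in IgG Ab replicates 2 and 3 is Col1a1, Col1a2 and Col3a1.

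Of 20 other genes of activated fibroblasts tested, 10 rose against Control and none fell (median log2 fold change 1.42), and 5 fell with anti-S100a9 Ab and none rose (median -0.76). Among the genes that rose were Lox and Loxl2, which cross-link collagen, the collagens Col5a1, Col5a2 and Col12a1, and the secreted factors Cthrc1, Inhba, Il11 and Wnt5a, and Lox, Loxl2, Cthrc1, Il11 and Col5a2 fell with the antibody. Il11, an interleukin-6 family cytokine made by inflamed fibroblasts, was listed at 0.154, 0.0683 and 0.132 FPKM in Control, 6.45, 1.95 and 9.84 in IgG Ab and 0.895, 0.403 and 0.205 in anti-S100a9 Ab, with no overlap between groups. Its log2 fold changes were 4.57 ± 0.61 (adjusted p = 0.00334) and -3.26 ± 0.61 (adjusted p = 0.0131). Cthrc1, a collagen triple helix repeat protein, rose by 4.68 ± 0.91 (adjusted p = 0.0153) and changed by -4.18 ± 0.91 with the antibody (adjusted p = 0.0192), with 2.90, 18.7 and 0.744 FPKM in IgG Ab and at most 0.171 in the other groups. It passed the filter through the IgG Ab samples and an anti-S100a9 Ab sample (0.171), with at most 0.0449 in Control. The filter itself thus favoured both calls of Cthrc1, which are in the counts above. Acta2, smooth muscle actin, was the most abundant of the list and overlapped between groups, at 466, 786 and 721 FPKM in Control, 146, 275 and 788 in IgG Ab and 899, 835 and 596 in anti-S100a9 Ab. Without a Control sample 4, 4 and 5 of the 20 were called against Control, and 6 without IgG Ab replicate 3. Between the antibodies 8 were called without IgG Ab replicate 1, 3 without replicate 3, and 1, 0 and 1 without anti-S100a9 Ab replicate 1, 2 or 3. Cthrc1 lost its rise without Control replicate 1 or 2 (adjusted p up to 0.0548) and its fall without any single anti-S100a9 Ab sample (up to 0.0679), and Il11 its fall without replicate 2 (0.0535). Col5a1 and Col12a1 lost their rise in 8 of the 9 fits with a sample left out (adjusted p up to 0.109), Inhba in 7 and Wnt5a in 5. The falls of Lox, Loxl2 and Col5a2 were each lost in 4. S100a4, the next most abundant, had log2 fold changes of 0.85 ± 0.35 (adjusted p = 0.144) and -0.36 ± 0.35 (adjusted p = 0.46).

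Of 24 other matricellular genes tested, out of 26 in the files, 8 rose and 2 fell against Control (median log2 fold change 0.73), and 6 fell and 3 rose with anti-S100a9 Ab against IgG Ab (median -0.65). Spock2, which encodes testican 2, a proteoglycan with a domain shared with Sparc, changed most. It was listed at 1.54, 3.97 and 2.58 FPKM in Control, at 518, 80.5 and 149 in IgG Ab and at 11.2, 5.10 and 3.35 in anti-S100a9 Ab, highest in the sample that was highest in Spp1 and Thbs1. Its log2 fold changes were 6.14 ± 0.69 (adjusted p = 0.00163) and -4.97 ± 0.69 (adjusted p = 0.00513). Wisp2, a CCN family protein, rose by 4.12 ± 0.67 (adjusted p = 0.00788) and changed by -3.05 ± 0.67 with the antibody (adjusted p = 0.0198). Smoc2, Smoc1, Wisp1, Cyr61, Fstl1 and Fbln5 also rose, and of these all but Fstl1 and Fbln5 fell with the antibody. Tnxb (tenascin X) and Fbln1 (fibulin 1) went the other way, with log2 fold changes of -1.35 ± 0.32 (adjusted p = 0.0313) and -0.96 ± 0.21 (adjusted p = 0.0229) against Control and 1.81 ± 0.32 (adjusted p = 0.0113) and 0.78 ± 0.21 (adjusted p = 0.0332) with the antibody, where Tnr also rose. With a sample left out, 5 to 13 of the 24 were called against Control, fewest without Control replicate 2, and 2 to 10 between the antibodies, with 4, 2 and 3 without anti-S100a9 Ab replicate 1, 2 or 3. Spock2 kept both calls in all 9 fits, while against Control Tnxb lost its call in 5 and Fbln1 in 2, and between the antibodies Wisp2 lost its call in 4, Tnxb in 1 and Fbln1 in 5. Against Control, Fstl1 also lost its call in 8 fits, Fbln5 in 6 and Smoc2 in 4. Between the antibodies, Tnr lost its call in 7, Wisp1 in 5, Cyr61 in 4 and Smoc2 in 2. Tnr was near the floor, at most 0.0327 FPKM in IgG Ab, and passed the filter through anti-S100a9 Ab (0.110 to 0.156) and a Control sample (0.106). The most abundant of the list, Sparcl1 and Thbs4, had estimates of -1.10 ± 0.46 (adjusted p = 0.151) and -2.04 ± 0.69 (adjusted p = 0.0902) against Control.

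Of 19 receptors of these proteins tested, 6 rose and 1 fell against Control, and 4 fell and 3 rose with anti-S100a9 Ab. Cd44, which binds osteopontin and hyaluronan, was listed at 10.3, 6.94 and 7.83 FPKM in Control, at 28.4, 17.0 and 19.9 in IgG Ab and at 11.1, 10.3 and 15.0 in anti-S100a9 Ab. It rose by 1.35 ± 0.24 (adjusted p = 0.0107) and changed by -0.83 ± 0.24 with the antibody (adjusted p = 0.0414). Sdc1 (a syndecan), Itgb8 (an integrin subunit that activates TGF-β) and Plaur (the urokinase receptor, which binds vitronectin) rose and fell in the same comparisons. Itgb8 and Plaur had the largest estimates of the list, 2.37 ± 0.33 (adjusted p = 0.00419) and 2.19 ± 0.36 (adjusted p = 0.00831) against Control. Itgav and Cd47 also passed against Control, but Cd47 lost its call in each of the 9 fits with a sample left out (adjusted p of 0.0547 to 0.146) and Itgav in 6 of the 9 fits. Itga8, an integrin subunit of mesenchymal cells that binds fibronectin, osteopontin and tenascin C, fell against Control (-1.53 ± 0.40, adjusted p = 0.0431) and was higher with anti-S100a9 Ab than with IgG Ab (2.14 ± 0.40, adjusted p = 0.0129), as were Itga4 and Itga9. With a sample left out, 4 to 6 were called against Control and 2 to 7 between the antibodies, with 3, 2 and 3 without anti-S100a9 Ab replicate 1, 2 or 3. Cd44 and Itgb8 lost the call between the antibodies in 6 of the 9 fits, Plaur in 3 and Itga8 in 1, and Itga8 lost that against Control in 7. Itgb1 and Sdc4, the most abundant, had estimates of 0.72 ± 0.24 (adjusted p = 0.083) and -0.47 ± 0.24 (adjusted p = 0.232) against Control.

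Of 16 genes tested that make, link or cleave versican and hyaluronan, 5 rose and 1 fell against Control, and 3 fell and 1 rose with anti-S100a9 Ab. Adamts4, a protease that cleaves versican, was listed at 0.124, 0.268 and 0.0951 FPKM in Control, 3.62, 2.00 and 6.54 in IgG Ab and 0.546, 0.354 and 0.478 in anti-S100a9 Ab, with no overlap between the groups. Its log2 fold changes were 3.88 ± 0.44 (adjusted p = 0.00165) and -2.75 ± 0.44 (adjusted p = 0.0082), whereas versican itself missed the threshold in both. Has1, a hyaluronan synthase, rose by 2.43 ± 0.64 (adjusted p = 0.0431), and Hyal2, a hyaluronidase, by 1.00 ± 0.21 (adjusted p = 0.0215), with -1.20 ± 0.21 with the antibody (adjusted p = 0.0112). Adamts9 and Hapln4 also rose against Control, and Hapln4 fell with the antibody. Hapln4 passed the filter only through the IgG Ab samples, at 0.260, 0.282 and 0.146 FPKM, with at most 0.0527 in the other groups. The filter itself thus favoured its calls, which are in the counts above, and it was tested in only 6 of the 9 fits with a sample left out. Hapln1, which links versican to hyaluronan, fell against Control (-1.39 ± 0.30, adjusted p = 0.0231) and was higher with the antibody (1.88 ± 0.30, adjusted p = 0.00828). With a sample left out, 1 to 5 of the 16 were called against Control, with 1 without Control replicate 1 or 2 and 3 without IgG Ab replicate 3, and 3 to 6 between the antibodies. Against Control, Has1 lost its call in 8 of the 9 fits (adjusted p up to 0.13), all but that without IgG Ab replicate 3, Adamts9 in 8, Hapln1 in 3 and Hyal2 in 2, and Adamts4 in none. Adamts15, the most abundant of the list, overlapped between Control and IgG Ab (-0.50 ± 0.39, adjusted p = 0.416).

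Over these 15 lists of other genes, 162 were tested, of which 48 rose and 8 fell against Control and 35 fell and 14 rose with anti-S100a9 Ab against IgG Ab. None was called between anti-S100a9 Ab and Control by limma, and 17 passed the thresholds of the study, as did 481 of the 15278 genes tested. Without anti-S100a9 Ab replicate 1, 2 or 3 the calls between the antibodies were 20, 11 and 18 in place of 49. The same fits called 789, 516 and 1116 of all genes in place of 3219. Against Control the calls on these lists were 25, 23 and 37 in place of 56 without Control replicate 1, 2 or 3, and 34 without IgG Ab replicate 3. Of all genes, these fits called 725, 591, 1681 and 1104 in place of 1710.

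**Figure D5:**
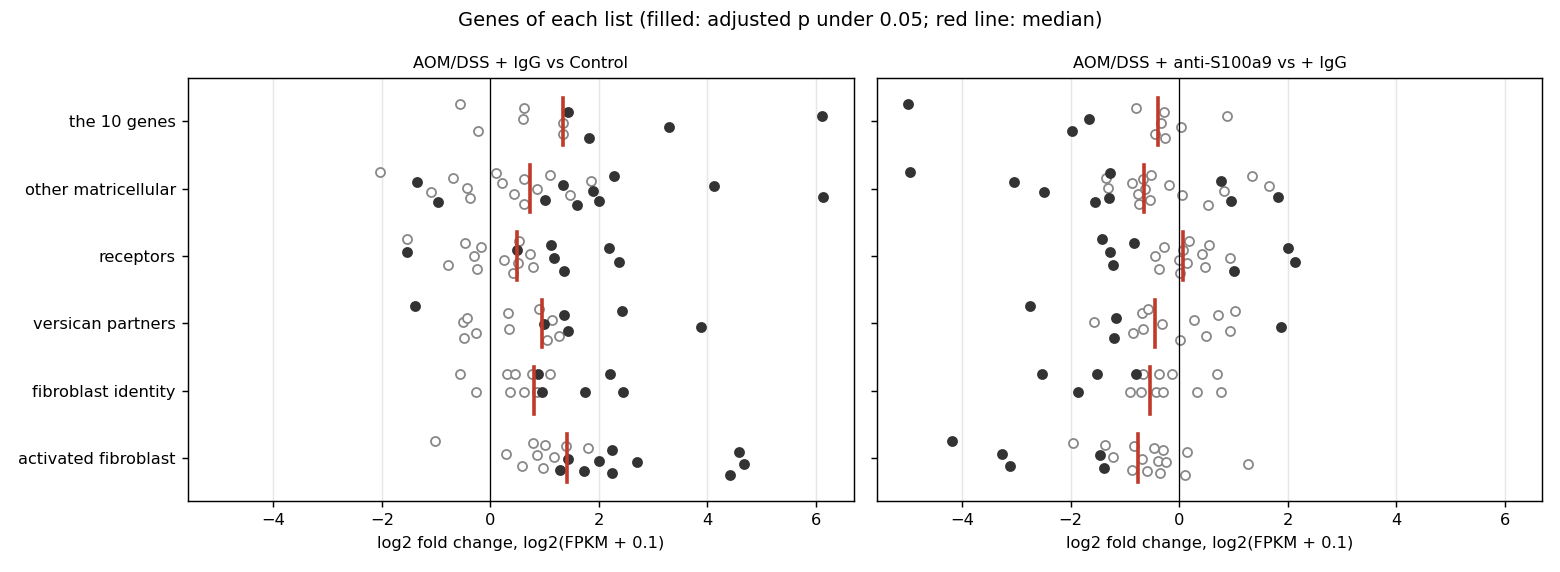
Log2 fold change of each tested gene of 6 lists in 2 comparisons, with filled points for an adjusted p under 0.05 and a red line at the median. The medians of all 6 lists lie above 0 against Control (0.49 to 1.42), and those of all but the receptors (0.06) below 0 between the antibodies.

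The mean profile of the 10 genes over the 9 samples, each gene centred on its Control mean, was matched most closely outside the list by Tmem178, Nid2, Pvr, Igfbp4, Bmp1, Adamts9, Pla1a and Prss23. Likeness was the root mean square difference in log2 units over the 9 samples, which was 0.124 for Tmem178, 0.178 for Nid2 and at most 0.258 for the 8. Tmem178 was higher than Control by 1.58 in IgG Ab and by 0.58 in anti-S100a9 Ab on this scale. It was near the floor, at 0.0551, 0.0658 and 0.0315 FPKM in Control and at most 0.427 in IgG Ab. Its profile and its rank thus depend on the pseudocount of 0.1. Nid2 (nidogen 2) is a basement membrane protein, Bmp1 cleaves the propeptides of fibrillar collagens, and Adamts9 cleaves versican and stands in the list above. The same measure for the 10 genes themselves, which are part of the mean, ran from 0.353 for Fn1, 0.375 for Thbs2, 0.426 for Vcan and 0.484 for Sparc to 1.28 for Postn and 2.73 for Spp1. The 8 genes named were picked as the nearest of all other genes tested. Their smaller distances follow from that choice and say nothing about the 10. These distances describe 9 samples and carry no test.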

How the data were processed

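RNA of 9 colorectal samples, 3 per group, was sequenced on a Solexa platform. The authors deposited a table per sample whose decimal values were taken as FPKM from their form and totals (308377 to 408811 per sample), since the unit is not stated. The submitters' processing notes name TopHat, Cufflinks, HTSeq, DESeq and GRCm38 with no role, and versions are not given in the sources used here. Read depth is unknown, so precision comes from the 3 replicates alone. No 2 samples held the same values.

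Rows with a repeated symbol (46) were summed to 21498 symbols. The 15278 genes that reached 0.1 FPKM in 3 or more samples were fitted as log2(FPKM + 0.1) with limma 3.58.1 in R 4.3.3, with an intensity trend over all 9 samples, two-sided tests and Benjamini-Hochberg adjustment. The script was tested on simulated data. The study tested counts with DESeq, which these values do not allow. Gene positions are from GENCODE M21 on GRCm38 and upstream sequences from RefSeq (GRCm38.p6).

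The 10 genes and the other lists were chosen with earlier results of these data known. Genes named outside the 10 are S100a9, from each list the 2 with the highest mean FPKM and the 2 with the largest absolute change in AOM/DSS + IgG Ab against Control, and the 8 with the nearest profile. Not all of these are named, some genes are not reported here, and further called genes are named after their values were seen. Adjusted p-values are limma's. Alternatives covered the pseudocount, filter, trend, scaling, groups in the fit, replicate block, thresholds and each sample left out.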

Additional observations from a re-analysis of the deposited data

How the results depend on the processing

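Of 537 refitted log2 fold changes of the 10 genes, 494 kept their direction and side of the threshold, 31 lost a call, 3 gained one and 9 changed sign. Spp1 kept both calls in every fit, and Thbs1 did except without anti-S100a9 Ab replicate 2. The number of the 10 genes called against Control was 4 as reported, 2 with only the 2 groups compared and 2 after median-of-ratios scaling, where Fn1 and Sparc were lost, and 2 to 5 with a sample left out. Between the antibodies it was 3, and 1 to 3 with a sample left out. Between anti-S100a9 Ab and Control it was 0, also with each sample left out, and 3 with the thresholds of the study. Of the other genes listed, 56 were called against Control, 21 with only the 2 groups compared and 23 to 56 with a sample left out. Between the antibodies it was 49, and 11 to 52, and between anti-S100a9 Ab and Control 0, and 0 to 2, with 17 by the thresholds of the study. Over all genes, 1710 were called against Control, 627 with only the 2 groups compared and 591 to 2167 with a sample left out. Between the antibodies it was 3219, and 516 to 4114. Between anti-S100a9 Ab and Control it was 2, and 0 to 5, with 481 by the thresholds of the study. The cause of these shifts was not tested.

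Changes of sign were all among values that missed the threshold. With a sample left out, Fap ran from -0.62 to 0.30 against Control, where 0.30 was without IgG Ab replicate 1, from -0.50 to 0.42 between the antibodies and from -0.35 to 0.06 between anti-S100a9 Ab and Control. Tnc between the antibodies ran from -0.72 to 0.27, Itgb1 from -0.17 to 0.21 and Sdc4 from -0.13 to 0.33, and Sparc between anti-S100a9 Ab and Control from -0.01 to 0.25. Fap between the antibodies was -0.02 with a pseudocount of 1, -0.01 after quantile normalization, -0.50 without IgG Ab replicate 1, and -0.12 and -0.07 without anti-S100a9 Ab replicate 1 or 2. Tnc between the antibodies was 0.27 without IgG Ab replicate 3. Between anti-S100a9 Ab and Control, Sparc was -0.01 without anti-S100a9 Ab replicate 1 and Fap 0.06 without replicate 3. Between the antibodies, Itgb1 was -0.01 and -0.17 without IgG Ab replicate 1 or 2 and -0.04 and -0.03 without anti-S100a9 Ab replicate 1 or 2, and Sdc4 was -0.13 and -0.02 without IgG Ab replicate 1 or 2. Cd47 between the antibodies ran from -0.04 to 0.05 with a sample left out and was 0.07 after median-of-ratios scaling and 0.15 after quantile normalization. Fap was not tested with a filter of 1 FPKM.

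The labels number the biological replicates and name no pairing between the groups, and the samples were fitted as unpaired. Deviations of same-numbered samples correlated at -0.187 to 0.249, over 0.1 in 5 of 9 pairs, and 9 of 18 sample and group combinations were closest to their own number. These values do not settle whether the numbers pair the samples. With the replicate block, 3 of the 10 genes were called against Control (Fn1 lost), 3 between the antibodies and 0 between anti-S100a9 Ab and Control, and of the other genes 47, 45 and 0.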
